A study of Mus musculus with 20 samples.

Results

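Markers of 3 kinds of retinal cell were followed in RNA from whole lenses. They are a set of 9 genes chosen by name, measured by 14 of the 45101 probe sets, and the same table names 18193 genes in all. Pdc, Rbp3 and Rcvrn mark photoreceptors, Rlbp1 and Fabp7 mark glia, and Snap25, Stmn2, Gap43 and Elavl3 mark neurons. The samples were lenses from triple knockout (TKO) embryos at E17.5, control embryos at E17.5, TKO newborns (P0) and control newborns, with 5 mice and 5 Affymetrix arrays in each group. TKO mice were Cry-Cre E2F1-/- E2F2-/- E2F3f/f, and controls were E2F2-/-, so that loss of E2F2 was shared by all 4 groups and Cre was named in the TKO groups only. The null alleles of E2F1 and E2F2 are not limited to the lens, whereas floxed E2F3 is removed where Cre acts, and the promoter behind Cry-Cre is not spelled out in the labels. Each sample pooled the lenses of 1 mouse, and no retina sample was analysed here.

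Photoreceptors are the light-sensing cells of the retina, and in the mouse many of them are still being made around birth. Müller glia, which span the retina and help recycle the visual pigment, appear last, after birth in the mouse. The ganglion, amacrine and horizontal neurons are born earlier and carry the genes of axons and synapses at both stages studied. A lens holds epithelial and fibre cells and no retinal neurons, but it lies against the ciliary margin of the retina, and some genes known from neurons are also active in lens fibres.

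The markers of the labelled tissue were at the top of the scale. The mean level of 18 lens genes, among them crystallins and Pax6, was 12.47 to 12.78 in TKO and 12.68 to 12.72 in control lenses at E17.5, and 12.73 to 12.81 in TKO and 12.80 to 12.89 in control lenses at P0 (log2, range of 5 arrays). The cell type label reads epithelial cells, although whole lenses were dissected. Array medians were 5.05 to 5.25, and precision is limited by the number of arrays. Over all probe sets, the mean correlation of TKO E17.5 replicates 24 and 27 with their own group was 0.985 and 0.988, below their 0.990 and 0.993 with E17.5 controls, and both were kept. TKO E17.5 replicate 28 stood apart in marker lists of other tissues, with a mean deviation from E17.5 controls of 1.28 for 11 vessel genes (-0.71 to -0.20 in the other 4 TKO arrays), 1.22 for 10 macrophage genes (-0.58 to 0.13), 1.12 for 2 blood genes (-0.42 to -0.10) and -0.23 for 18 lens genes (-0.05 to 0.08). As a measure of RNA integrity, the 5' less the 3' control probe set of Gapdh was 0.10 to 0.20 in TKO and -0.06 to -0.02 in control arrays at E17.5, and 0.15 to 0.19 in TKO and -0.05 to 0.06 in control arrays at P0 (log2). The 3' probe set of 18S RNA was 8.54 to 9.01 in TKO and 9.05 to 9.35 in control arrays at P0. The 5' less the 3' probe set of actin was -0.95 to -0.70 in TKO and -1.03 to -0.87 in control arrays at P0. At E17.5 it was -1.01 to -0.71 in TKO and -1.01 to -0.86 in control arrays. The Gapdh and 18S measures separated the genotypes at P0, the Gapdh measure also at E17.5, and the actin measure overlapped at both stages. The part of these measures in the changes given here was not tested.

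Promoter sequences from RefSeq (GRCm38.p6) were held for 5 of the 9 genes. The 250 bases before the start of the 4 of these that were called higher in TKO lenses at P0 are shown, 5′ to 3′ on the strand of the gene, to let the photoreceptor and glial genes be compared. Capitals mark TAATCC or its reverse complement, the core bound by the photoreceptor factor Crx. They cover chr14:33953753-33954002 (plus strand) for Rbp3, chr1:150319167-150319416 (plus strand) for Pdc, chr7:79387028-79387277 (minus strand) for Rlbp1 and chr10:57784673-57784922 (plus strand) for Fabp7.
Rbp3: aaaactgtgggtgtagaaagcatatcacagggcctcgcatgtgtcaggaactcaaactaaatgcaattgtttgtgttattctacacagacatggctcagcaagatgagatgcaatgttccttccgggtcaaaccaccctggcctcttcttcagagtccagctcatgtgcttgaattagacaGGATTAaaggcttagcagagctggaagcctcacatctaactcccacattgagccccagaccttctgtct
Pdc: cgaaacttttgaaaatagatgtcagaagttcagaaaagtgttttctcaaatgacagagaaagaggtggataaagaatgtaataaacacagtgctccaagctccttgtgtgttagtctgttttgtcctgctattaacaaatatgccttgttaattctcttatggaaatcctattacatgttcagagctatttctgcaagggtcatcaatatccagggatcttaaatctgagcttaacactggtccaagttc
Rlbp1: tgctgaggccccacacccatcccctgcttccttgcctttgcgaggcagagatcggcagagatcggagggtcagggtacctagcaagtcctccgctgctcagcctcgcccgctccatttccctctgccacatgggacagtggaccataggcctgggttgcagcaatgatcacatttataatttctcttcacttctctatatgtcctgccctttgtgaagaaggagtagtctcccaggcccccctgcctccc
Fabp7: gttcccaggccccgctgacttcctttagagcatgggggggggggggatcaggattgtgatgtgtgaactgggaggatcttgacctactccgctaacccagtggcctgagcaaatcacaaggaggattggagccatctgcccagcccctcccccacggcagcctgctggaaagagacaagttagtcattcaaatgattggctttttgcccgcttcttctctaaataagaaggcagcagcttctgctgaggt
The Crx core was in 1 of the 5 windows, that of Rbp3, beginning at position -69 from the gene start. It was in 6.25% of 32851 promoter windows of the same length, searched on both strands. A match is a description of letters, and the absence of one says nothing of the factor.

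At P0, 7 of the 8 markers that could be tested were higher in TKO lenses, and none was lower. The glial markers Rlbp1 and Fabp7 were raised 3.68-fold and 3.95-fold, the neuron markers Snap25, Gap43 and Stmn2 4.50-fold, 3.36-fold and 2.98-fold, and the photoreceptor markers Pdc and Rbp3 2.38-fold and 1.35-fold. Elavl3 did not pass and Rcvrn was too dim to test. Of all 11859 genes tested, 17.1% were called higher and 17.3% lower. A gene was tested where its brightest probe set lay above the array median on at least 5 of 20 arrays, and called where the adjusted p of limma fell below 0.05. The 8 tested markers lay above the median on 7 to 15 of the 15 arrays outside the TKO P0 group, so that none passed through that group alone. In whole lenses, more cells of a type and more RNA per cell cannot be told apart.

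**Figure D1:**
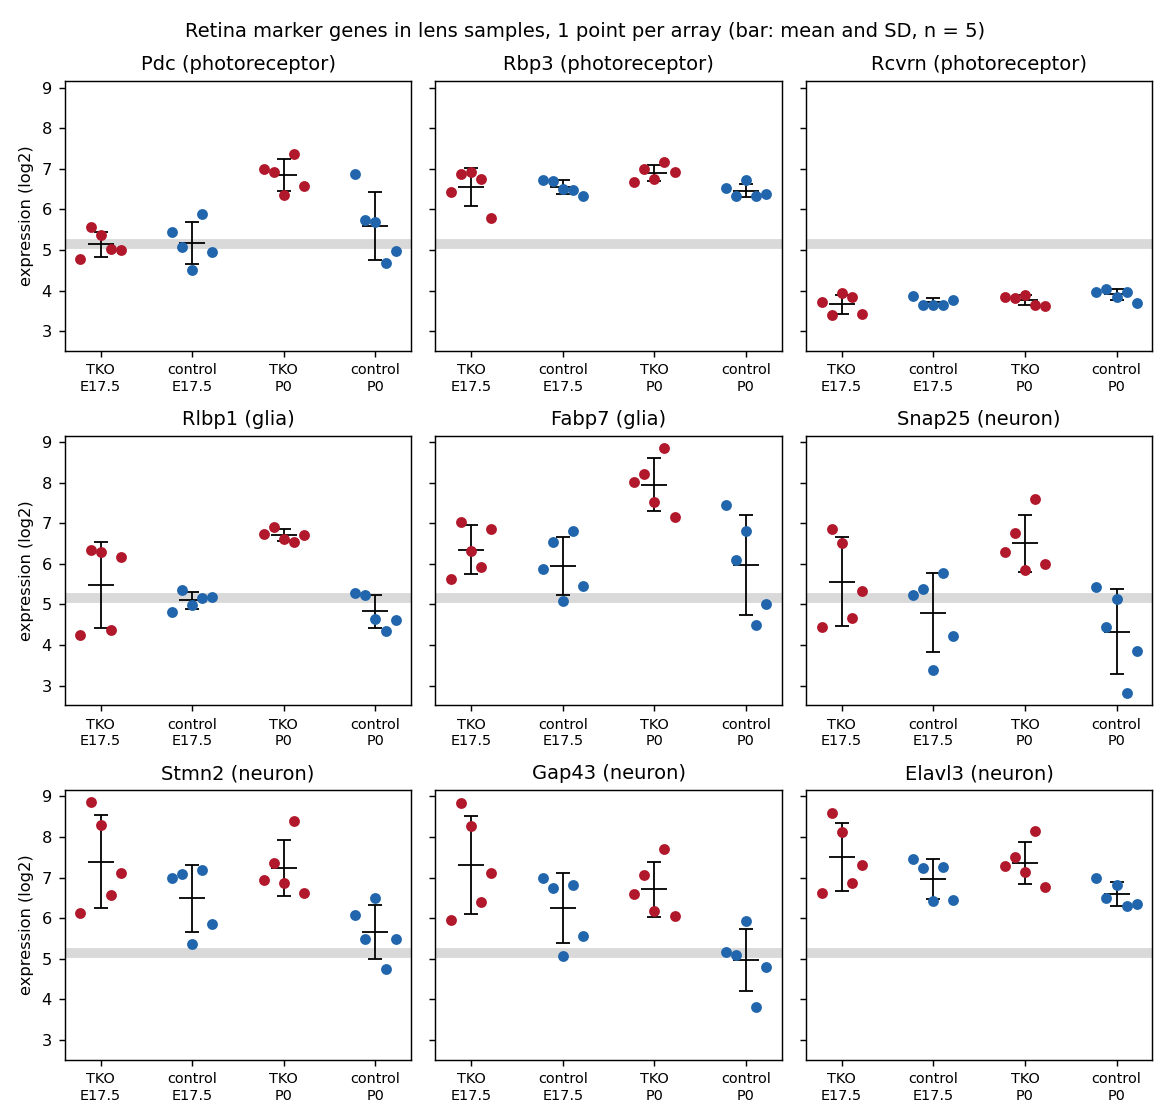
Expression (log2) of the 9 markers on each array, with 1 point per array and the mean and SD of 5 arrays as a bar, in TKO (red) and control (blue) lenses at E17.5 and P0. The grey band is the range of array medians, 5.05 to 5.25. Rlbp1 lies at 6.55 to 6.91 in TKO P0 and at 4.36 to 5.28 in control P0 arrays, and Rcvrn lies below the band on all 20 arrays.

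Of the 3 classes, the photoreceptor markers had the smallest median difference. Pdc encodes phosducin, which binds the beta and gamma subunits of the photoreceptor G protein. Its level in TKO P0 lenses was 6.99, 6.92, 6.34, 7.36 and 6.58 (log2, replicates 17, 18, 19, 21 and 22). In control P0 lenses it was 6.86, 5.73, 5.70, 4.68 and 4.97 (replicates 1, 5, 6, 7 and 8). Control replicate 1 lay within the TKO range and the other 4 controls lay below it. The difference was 1.25 ± 0.32 (SE, limma adjusted p = 0.00631). Over 28 other settings it lay between 1.03 and 1.57, the latter without control replicate 1, and the adjusted p reached 0.0218. Rbp3 encodes the interphotoreceptor retinoid-binding protein, which carries retinoids between photoreceptors and pigment epithelium. It measured 6.66, 6.99, 6.75, 7.16 and 6.93 in TKO P0 lenses, against 6.53, 6.33, 6.72, 6.34 and 6.38 in control P0 lenses. Here 4 of 5 TKO arrays lay above every control, and the difference was 0.44 ± 0.16 (adjusted p = 0.0463). Of 27 alternative settings 14 lost this call, and over all 27 the change lay between 0.36 and 0.50 and the adjusted p reached 0.104. The dimmer Rbp3 probe set lay at 2.68 to 2.85 in TKO P0 and 2.60 to 2.87 in control P0 arrays, below the median everywhere.

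Rcvrn, which encodes recoverin, the calcium sensor that restrains rhodopsin kinase, lay below the array median on all 20 arrays. It measured 3.61 to 3.90 in TKO P0 and 3.69 to 4.04 in control P0 lenses, and the ranges overlapped. Without the filter its difference was -0.14 ± 0.10 (SE, adjusted p = 0.365 over 18193 genes, 95% interval -0.35 to 0.07), while 11.6% of genes were called higher.

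Rlbp1 had the smallest adjusted p of the 9 genes at P0. It encodes the retinaldehyde-binding protein of Müller glia and of the retinal pigment epithelium, which binds the retinoid chromophore of visual pigment as it is recycled for photoreceptors. TKO P0 lenses had 6.74, 6.91, 6.62, 6.55 and 6.71, against 5.28, 5.23, 4.63, 4.36 and 4.62 in control P0 lenses. No array overlapped, and the TKO values spanned 0.37 where those of Snap25 spanned 1.76. The difference was 1.88 ± 0.34 (SE, adjusted p = 0.000632). Fabp7 encodes the brain lipid-binding protein of radial glia and progenitors. It measured 8.01, 8.22, 7.53, 8.85 and 7.15 in TKO P0 lenses, against 7.45, 6.08, 6.81, 4.50 and 5.02 in control P0 lenses. Control replicate 1 exceeded TKO replicate 22, and the difference was 1.98 ± 0.48 (adjusted p = 0.00451).

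The neuron markers were higher in TKO P0 lenses with a wide spread in both genotypes. Snap25 encodes a SNARE protein of synaptic vesicle release. It measured 6.30, 6.77, 5.84, 7.59 and 6.01 in TKO P0 lenses, against 5.43, 4.44, 5.13, 2.82 and 3.84 in control P0 lenses. The groups did not overlap, and the difference was 2.17 ± 0.56 (SE, adjusted p = 0.0063). Its dimmer probe set lay below the array median on all arrays. Gap43, a protein of growth cones, measured 6.60, 7.05, 6.17, 7.70 and 6.05 in TKO P0 lenses, against 5.18, 5.08, 5.94, 3.82 and 4.80 in control P0 lenses. These groups did not overlap either, and the difference was 1.75 ± 0.52 (adjusted p = 0.0150).

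Stmn2, which regulates microtubules in growing axons, measured 6.95, 7.35, 6.87, 8.39 and 6.61 in TKO P0 lenses, against 6.08, 5.49, 6.49, 4.74 and 5.50 in control P0 lenses. The lowest TKO array lay just above the highest control, and the difference was 1.58 ± 0.49 (adjusted p = 0.0200). The call ended without control replicate 7 (1.35, adjusted p = 0.0593) and without TKO replicate 21 (1.29, adjusted p = 0.0530). Its second probe set differed by 2.01 ± 0.58 (SE). Elavl3, an RNA-binding protein of postmitotic neurons, measured 7.28, 7.51, 7.13, 8.14 and 6.77 in TKO P0 lenses, against 6.99, 6.49, 6.83, 6.31 and 6.36 in control P0 lenses. Of the TKO arrays 4 lay above every control, and the difference was 0.77 ± 0.33 (adjusted p = 0.0770). It was called in 4 of 29 other settings, among them the fit of the P0 arrays alone. Its probe sets agreed in direction but not in the call. A dimmer one differed by 0.59 ± 0.21 and was called when every probe set was tested (adjusted p = 0.0415). The third differed by 0.48 ± 0.22 and lay below the array median on all arrays. In all, 4 of the 8 tested markers, Rlbp1, Snap25, Stmn2 and Gap43, had every TKO P0 array above every control, as had 13.2% of all genes tested.

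**Figure D2:**
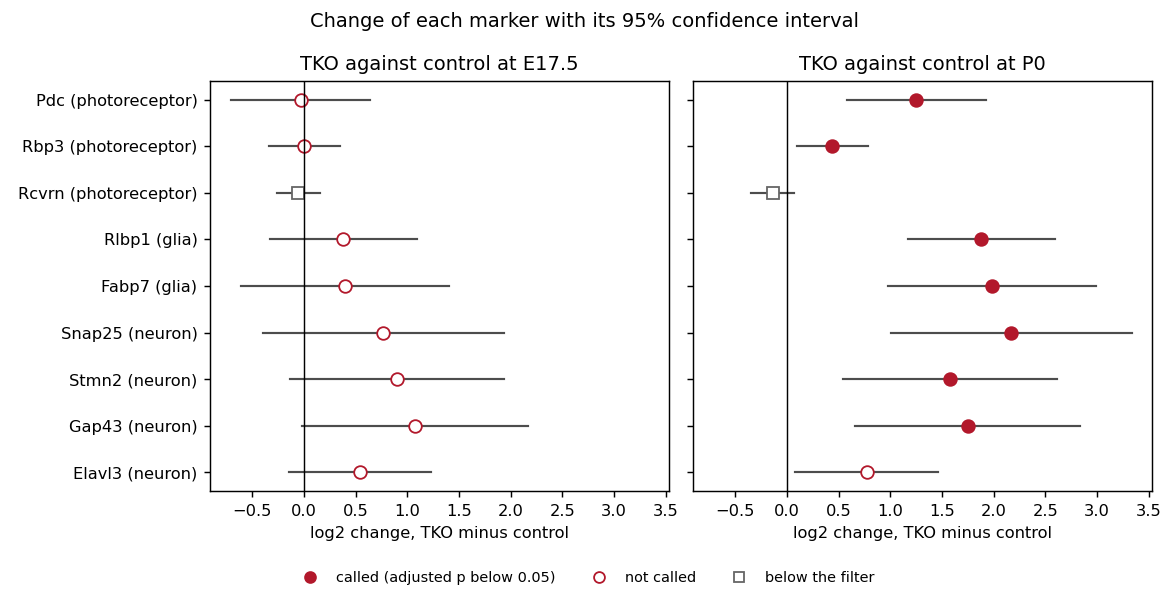
Difference TKO minus control (log2) for each marker at E17.5 (left) and P0 (right), with its 95% confidence interval from the fit of all 20 arrays. Filled circles were called, open circles were not, and the square is Rcvrn, which lay below the filter. At P0 7 markers are called higher, and at E17.5 none is.

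At E17.5, none of the 8 tested markers was called by limma, and none had an unadjusted p below 0.05, while 5.54% of all genes were called higher and 7.45% lower. The smallest p belonged to Gap43, with a difference of 1.07 ± 0.52 (SE, adjusted p = 0.163). Gap43 measured 5.97, 8.83, 8.26, 6.40 and 7.12 in TKO E17.5 lenses (replicates 24, 25, 26, 27 and 28), against 6.99, 6.76, 5.08, 6.82 and 5.56 in control E17.5 lenses (replicates 10, 11, 12, 13 and 15). Replicates 25, 26 and 28 lay above every control, and replicates 24 and 27 lay within the control range. Snap25 measured 4.44, 6.87, 6.51, 4.66 and 5.34 in TKO E17.5 lenses, against 5.23, 5.37, 3.38, 5.77 and 4.23 in control E17.5 lenses. Only TKO replicates 25 and 26 exceeded every control, and the 95% interval of the difference was -0.40 to 1.93.

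Stmn2 and Elavl3 had the same 2 TKO arrays above every control at E17.5, with differences of 0.90 ± 0.49 and 0.54 ± 0.33 (SE, adjusted p = 0.219 and 0.265). Rlbp1 measured 4.24, 6.33, 6.28, 4.38 and 6.16 in TKO E17.5 lenses, against 4.81, 5.36, 4.99, 5.16 and 5.18 in control E17.5 lenses. TKO replicates 25, 26 and 28 lay above every control and replicates 24 and 27 below every control. The difference of its means was 0.38 ± 0.34 (adjusted p = 0.459), with SDs of 1.07 in TKO and 0.21 in control lenses. Fabp7 lay at 5.62 to 7.03 in TKO and 5.09 to 6.80 in control E17.5 lenses, a difference of 0.39 ± 0.48 (adjusted p = 0.599).

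Pdc showed no such split at E17.5. It measured 4.77, 5.55, 5.36, 5.03 and 5.0 in TKO E17.5 lenses, against 5.44, 5.08, 4.51, 5.90 and 4.95 in control E17.5 lenses, all TKO values lying inside the control range. Its difference was -0.03 ± 0.32 (SE, 95% interval -0.71 to 0.64). That of Rbp3 was 0.00 ± 0.16 (95% interval -0.34 to 0.35), with TKO replicate 28 lowest at 5.80. For Rbp3 3 of the 5 TKO arrays lay above every control, and without replicate 28 the difference was 0.19 ± 0.12 (adjusted p = 0.293). The count of 0 markers depended on how arrays were weighted. With arrayWeights in limma, which gave TKO replicate 26 a weight of 2.58 and the other 4 TKO E17.5 arrays 0.11 to 0.72, Gap43 (1.84), Stmn2 (1.60), Elavl3 (1.05), Rlbp1 (0.82) and Rbp3 (0.31) were called higher, while 36.2% of all genes were then called in either direction.

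The classes ranked differently at the 2 stages. At P0 the median difference was 0.84 for the 2 tested photoreceptor markers (0.44 with Rcvrn, which lay below the array median), 1.93 for the 2 glial markers and 1.66 for the 4 neuron markers, beside -0.01 for all genes tested. At E17.5 it was -0.01 for the 2 tested photoreceptor markers (-0.03 with Rcvrn), 0.39 for glia and 0.83 for neurons, beside -0.03 for all genes tested. No test was made between the classes, which hold few genes chosen with results known. Wider lists of the same cells, read further below, did not keep this order. Their medians were 0.71 for neuron, 0.37 for photoreceptor and 0.35 for glial genes at P0. At E17.5 they were 0.24, -0.003 and 0.11, with the neuron list first at both stages.

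The classes were also read array by array. Averaged over its genes, the neuron class stood 2.16, 1.67 and 0.60 above the E17.5 control mean in TKO replicates 25, 26 and 28, where the glial class stood at 1.15, 0.77 and 0.98 and the photoreceptor class at 0.13, 0.26 and -0.41. In TKO replicates 24 and 27 the neuron class stood at -0.34 and 0.00, the glial class at -0.59 and -0.38 and the photoreceptor class at -0.17 and 0.06. At P0 all 3 classes stood above the control mean on all 5 TKO arrays, at 0.97 to 2.57 for neurons, 1.53 to 2.30 for glia and 0.35 to 0.74 for photoreceptors (0.52 to 1.24 without Rcvrn). Control P0 arrays spread too, the neuron class running from -0.96 in replicate 7 to 0.71 in replicate 6. The glial class ran from -0.97 in replicate 7 to 0.97 in replicate 1, and the photoreceptor class from -0.32 to 0.47 in the same replicates. For photoreceptors control replicate 1 thus lay above TKO replicates 19 (0.35) and 22 (0.39). Without Rcvrn it stood at 0.67, above TKO replicate 19 (0.52).

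**Figure D3:**
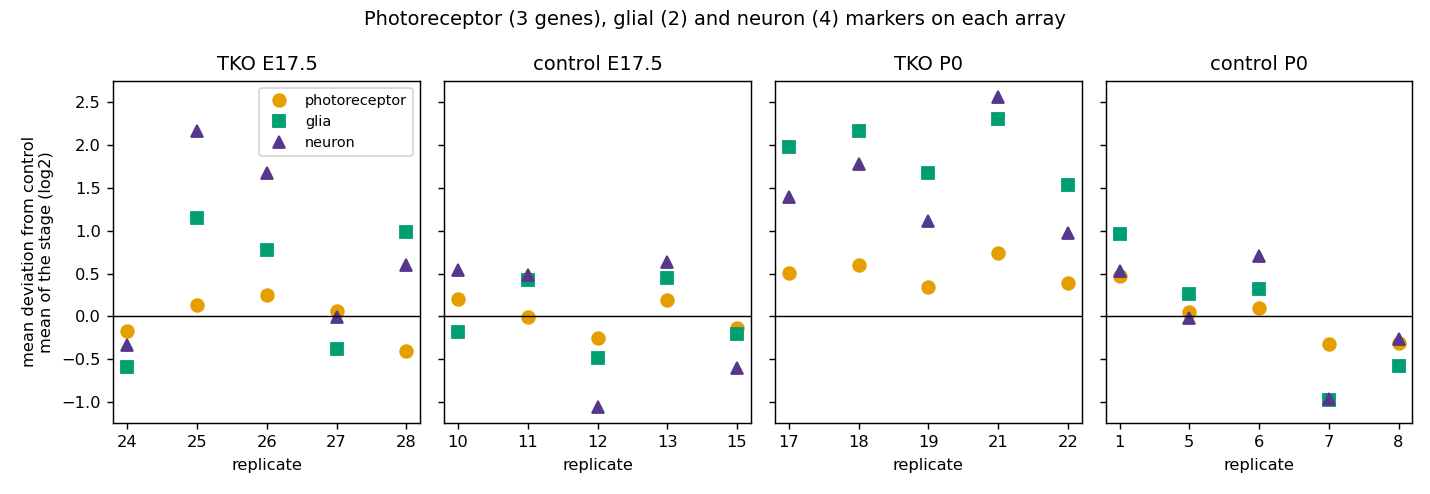
Mean deviation from the control mean of the stage (log2) for the photoreceptor (circles, 3 genes), glial (squares, 2) and neuron markers (triangles, 4) on each array, 1 panel per group. In TKO P0 lenses all classes lie above 0 on every array, while in TKO E17.5 lenses replicates 24 and 27 lie near or below 0.

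Several markers shared the arrays at the ends of a group. In TKO E17.5 lenses replicate 25 was highest and replicate 24 lowest for the same 7 genes, Pdc, Rlbp1, Fabp7, Snap25, Stmn2, Gap43 and Elavl3. In TKO P0 lenses replicate 21 was highest for Pdc, Rbp3, Fabp7 and all 4 neuron markers. Control P0 replicate 7 was lowest for the same 7 genes as TKO E17.5 replicate 24, and control E17.5 replicate 12 was lowest for 6 of them, Rlbp1 being the exception. The top was split in the controls, between replicates 10 and 13 at E17.5 (4 markers each) and between replicates 1 and 6 at P0 (5 and 3 markers). The genes on an array share its RNA and labelling, so that this order is a description of the samples.

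Rlbp1 did not follow the neuron markers in TKO P0 replicate 21. This array, highest for Snap25 at 7.59, was lowest for Rlbp1 at 6.55, just below replicate 19 at 6.62. There Rlbp1 less the mean deviation of the neuron class was -0.85, against 0.31 to 0.91 in the other TKO P0 arrays. In TKO E17.5 replicate 28, Rlbp1 stood 0.46 above the mean deviation of the neuron class. In the other 4 TKO E17.5 arrays it stood below that mean by values between -0.93 and -0.49. Controls varied on this measure too. Embryonic controls spanned -0.83 (replicate 10) to 0.95 (replicate 12), and newborn controls spanned -0.90 (replicate 6) to 0.49 (replicate 7). Thus TKO replicates 21 and 28 lay inside the control range of their stage, and gaps of their size were not particular to TKO lenses. TKO P0 replicates 17, 19 and 22 (0.52, 0.67 and 0.91) lay above the newborn control range, and replicate 18 (0.31) lay inside it. TKO E17.5 replicate 25 (-0.93) lay below the embryonic control range, and replicates 24, 26 and 27 (-0.52, -0.49 and -0.72) lay inside it. Marker lists of neighbouring tissues were read on the same arrays. For 6 ciliary body genes the mean deviation from the stage's controls was highest in TKO E17.5 replicate 28 (1.72, against 1.21 and 1.34 in replicates 25 and 26), and lowest among TKO P0 arrays in replicate 21 (0.87, against 1.79 to 2.02 in the others). For 12 pigment cell genes TKO P0 replicate 21 was also lowest, at 0.56 against 0.69 to 1.04. This order was not particular to these lists. The vessel list too was highest among TKO E17.5 arrays in replicate 28 (1.28) and lowest among TKO P0 arrays in replicate 21 (-0.64). The macrophage and blood lists were also highest in TKO E17.5 replicate 28, at 1.22 and 1.12. The mean level of the pigment genes was 5.68 to 6.84 in TKO and 5.99 to 6.29 in control arrays at E17.5, and 6.66 to 7.14 in TKO and 5.98 to 6.31 in control arrays at P0. Of that list 5 of 10 tested genes were called higher at P0, beside 17.1% of all genes tested. Rpe65 and Lrat, enzymes of the pigment epithelium's visual cycle, lay below the array median on all 20 arrays. The part of these cells in the Rlbp1 level was not tested.

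**Figure D4:**
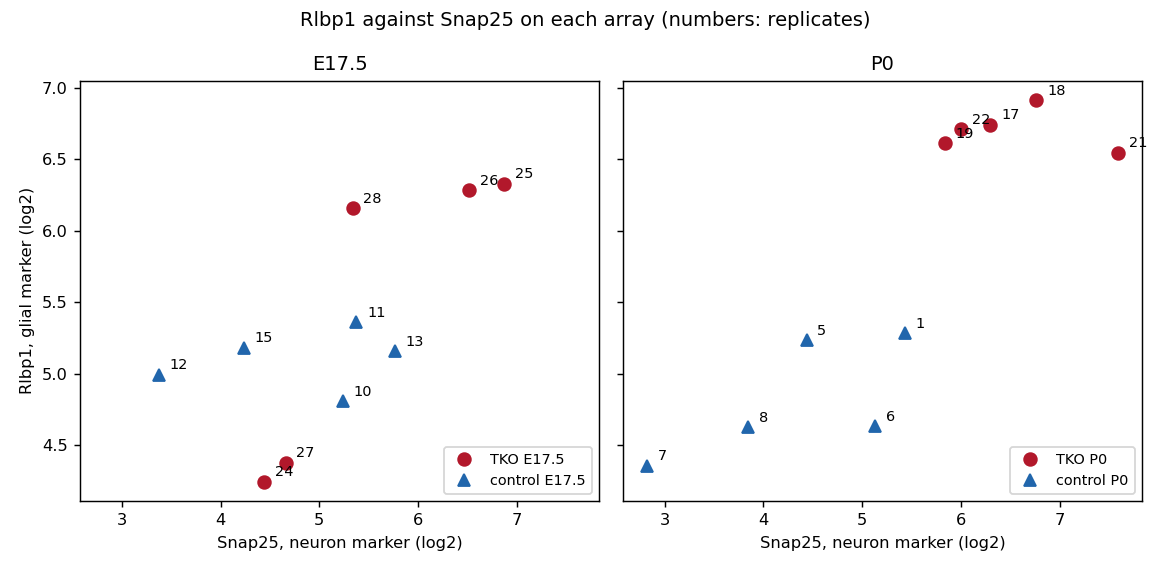
Rlbp1 against Snap25 (log2) on each array at E17.5 (left) and P0 (right), with TKO as circles, controls as triangles and replicate numbers beside the points. At P0 the TKO arrays keep Rlbp1 between 6.55 and 6.91 while Snap25 runs from 5.84 to 7.59, and at E17.5 replicates 24 and 27 lie below the controls in Rlbp1.

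Between the stages, 1 photoreceptor marker and both glial markers were higher in newborn than in embryonic TKO lenses, and no marker was called in controls. P0 minus E17.5 in TKO lenses was 1.70 ± 0.32 for Pdc, 1.61 ± 0.48 for Fabp7 and 1.23 ± 0.34 for Rlbp1 (SE, limma adjusted p = 0.000911, 0.0161 and 0.0104), and 14.4% of all genes were called higher and 18.9% lower. Every TKO P0 array lay above every TKO E17.5 array for these 3 genes, as for 4.73% of all genes. With the TKO arrays alone in the fit Rlbp1 was no longer called (adjusted p = 0.0658). None of the 4 neuron markers passed, with values from -0.60 for Gap43 to 0.94 for Snap25. With array weights Gap43 was called lower at -1.42 (adjusted p = 0.0359), where 53.9% of all genes were called. In controls none of the 8 tested markers was called, where 17.3% of genes were, and 1 had an unadjusted p below 0.05. This was Gap43, at 4.97 ± 0.77 in P0 and 6.24 ± 0.86 in E17.5 controls (SD, n = 5), a difference of -1.28 ± 0.52 (SE, adjusted p = 0.0994). It was called in the fit of the control arrays alone and with array weights, settings that called 37.4% and 42.9% of all genes.

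Whether the genotype effect itself differed between P0 and E17.5 was tested as an interaction. None of the 8 markers was called by limma, where 0.177% of all genes were, and 3 had an unadjusted p below 0.05. These were Rlbp1, with an effect larger at P0 by 1.5 ± 0.48, Pdc, larger by 1.29 ± 0.46, and Fabp7, larger by 1.59 ± 0.68 (SE, adjusted p = 0.160, 0.197 and 0.268). With array weights Rlbp1 was called at 1.08 (adjusted p = 0.0411), and so were 21.8% of all genes. For Stmn2 the difference of effects was 0.68 ± 0.70, so that a change at birth was not shown to differ from that at E17.5.

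Other genes of the same cells were read from lists drawn up from general knowledge, but with earlier results of these data known. Some passed the filter through the TKO P0 arrays alone, where they are high, so the counts are also given without those. Each count at P0 stands beside the 17.1% of all genes called higher and 17.3% called lower, and each at E17.5 beside 5.54% and 7.45%. A share near these is no result about a list. Of 16 tested photoreceptor genes 7 were higher and 1 lower in TKO lenses at P0 (median 0.37), and 0 of 16 at E17.5 (median 0.00). At P0 6 of the 13 that also passed on the other 15 arrays were higher. Another 17 of the 37 on the array, among them genes of the mature outer segment, lay below the array median on every array. Nrl, the factor that commits rods, measured 6.03 ± 0.25 in TKO P0 and 4.66 ± 0.69 in control P0 lenses (SD, n = 5), given as levels since it passed the filter through the TKO P0 arrays alone. Rxrg, a nuclear receptor of cones, was higher by 0.78 ± 0.16 (SE, adjusted p = 0.00161). The fallen gene was Abca4, a transporter of outer segments, at 8.87 ± 0.52 in TKO P0 and 9.72 ± 0.19 in control P0 lenses (SD, n = 5), a difference of -0.85 ± 0.22 (SE, adjusted p = 0.00575).

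Of 19 tested glial genes 9 were higher and 3 lower at P0 (median 0.35), all among the 18 that passed on the other arrays. Slc1a3, the glutamate transporter of Müller glia, was higher by 1.13 ± 0.23 and Hes1, a Notch target of progenitors, by 0.79 ± 0.17 (SE, adjusted p = 0.00146 and 0.00203). Spon1 changed by -0.87 ± 0.12 and Gfap, the intermediate filament of astrocytes, by -0.39 ± 0.09. At E17.5 2 of the 19 were higher, Hes1 by 0.62 and the water channel gene Aqp4 by 0.95, and Spon1 was lower. Of all genes tested, 5.54% were called higher and 7.45% lower at that stage. Aqp4 was named after its value was seen. Of 35 tested neuron genes 17 were higher and 1 lower at P0 (median 0.71), 16 of the higher ones among the 33 that passed on the other arrays. Calb2, the calcium buffer calretinin, was higher by 1.36 ± 0.30 and Rbpms, an RNA-binding protein of ganglion cells, by 0.77 ± 0.19. Vamp2, a SNARE partner of Snap25, was lower at P0 by a change of -0.26 ± 0.08 and at E17.5 by -0.42 ± 0.08 (adjusted p = 0.0209 and 0.00484), the only neuron gene called at E17.5.

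Genes of retinal progenitors and the ciliary body moved beside them. Of 12 tested progenitor genes 11 were higher at P0, and their mean level was 7.98 to 8.62 in TKO and 5.93 to 7.32 in control P0 arrays. Of 6 ciliary body genes 6 were higher, with 8.83 to 9.98 in TKO and 7.37 to 8.36 in control P0 arrays. Of 11 vessel genes 0 were higher and 1 was lower, of 8 macrophage genes 2 were higher, and of 18 lens genes 1, Pax6, was higher and 1, Gja3, was lower. All 6 muscle genes and 4 of 7 surface epithelium genes, including Krt12 of the cornea, lay below the array median on every array. Of the Schwann cell and neural crest list 2 genes were tested and of the blood list 1, with none called.

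**Figure D5:**
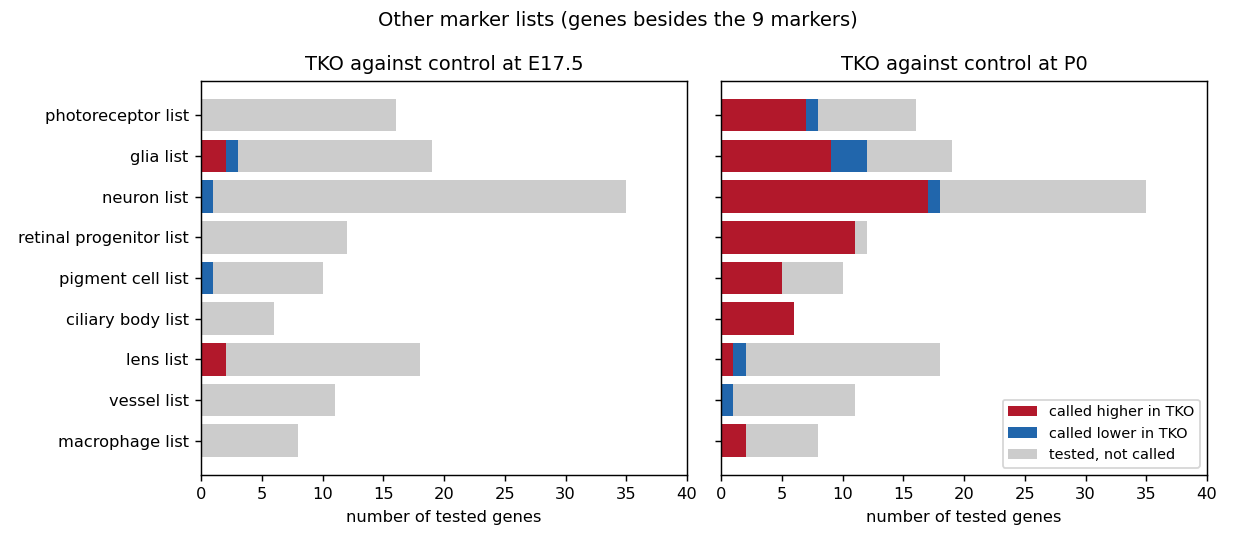
Number of tested genes called higher (red), called lower (blue) or not called (grey) in TKO lenses at E17.5 (left) and P0 (right), for marker lists that leave out the 9 genes. At P0 the progenitor list has 11 of 12 and the neuron list 17 of 35 genes higher, and at E17.5 the glial and lens lists have 2 each. Of all genes tested, 17.1% were called higher at P0 and 5.54% at E17.5.

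Across the 20 arrays, the genes closest to each class were sought by the root mean square difference of their centred log2 profiles, among 11848 other genes. Closest to the neuron markers were Dcx, a microtubule protein of migrating neurons, Rtn1 and Crmp1, at 0.19, 0.21 and 0.26 (log2), where the class profile had an SD of 1.0. Closest to the glial markers were the neuronal membrane gene Gpm6a, Rrh, the opsin peropsin of the pigment epithelium, and the cell adhesion gene Cntn1, at 0.36, 0.36 and 0.39, where the class SD was 0.97. The photoreceptor profile held all 3 markers, including Rcvrn, which lay below the array median on all 20 arrays. Closest to this profile were Tulp1, a photoreceptor protein, Slc8a3 and the elastin gene Eln, at 0.18, 0.19 and 0.19. The class SD was 0.37, so that these matches were looser for their size. These genes were chosen for their likeness on the same arrays, so no test of their own is given.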

How the data were processed

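Expression was deposited by the authors on the log2 scale, with 1 value for each probe set on each array (1.72 to 15.0); the scale was read from the values. How the arrays were background-corrected, summarised and normalized is not stated by the labels. Per the labels' protocols, cRNA was made from 2 ug of TRIzol-extracted RNA. A platform annotation named 1 gene for 34945 probe sets, several for 932 and none for 9160; 64 were controls. Symbols of 34741 were updated through RefSeq (GRCm38.p6). Each gene was represented by its brightest probe set. limma (version 3.58.1, R 4.3.3) fitted 1 mean per group over all 20 arrays without covariates; tests were two-sided, with Benjamini-Hochberg adjustment over 11859 genes. The same code was first tested on simulated arrays. The labels name separate mice but no litter, sex or batch. No pair of arrays shared more than 0.142% of values.

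Members and lists were chosen with earlier results of these data known. Named genes were all 9 members, up to 2 risen and 2 fallen genes per list by smallest adjusted p at P0, or the gene with the smallest p as a value, and the 3 closest profiles per class. Alternatives were quantile normalization, median centring, no filter, a 75th percentile filter, the mean of probe sets, every probe set, only the groups compared, an intensity trend, array weights and leaving out each array.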

Additional observations from a re-analysis of the deposited data

Results flagged for a closer look

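No array stood far from the others of its group by Dixon's test in the 36 sets of 5 values that the 9 markers give in 4 groups, although chance gives about 1 in 20 such sets.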

How the results depend on the processing

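The count of markers called at P0 (7) was 2 with the stricter filter, which left 3 markers to test, and 5 to 8 when each array was left out, with 5 without control replicate 7 and without TKO replicate 21. The count at E17.5 (0) was 5 with array weights and 0 without any single array. The count for P0 against E17.5 in TKO lenses (3) was 1 with the stricter filter, 2 with the TKO arrays alone, 4 with quantile normalization (Rbp3 added), 4 with array weights (Gap43, lower, added) and 3 without any single array. In controls (0) it was 1, Gap43, in the fit of the control arrays alone and 1 with array weights, and for the difference of effects (0) it was 1 with array weights; both were 0 without any single array. No change called in the fit as reported reversed its sign in any setting run. Rbp3 did change sign in comparisons where only another setting called it. At E17.5 it was 0.31 with array weights and as low as -0.09 in another setting. Between stages in TKO lenses it was 0.43 with quantile normalization and as low as -0.03 in another setting. At P0 the calls of Pdc, Rlbp1, Fabp7, Snap25 and Gap43 held in all 27 to 29 other settings that tested them.

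The count of all genes called moved further. For E17.5 it was 1541, against 343 with the E17.5 arrays alone, 4293 with array weights, 3488 of all probe sets and 833 to 2501 with each array left out. For P0 it was 4080, against 6482 with array weights and 7055 of all probe sets. For TKO lenses between stages it was 3940, against 1728 with the TKO arrays alone, 2325 with the stricter filter, 6388 with array weights and 6442 of all probe sets. For controls it was 2046, against 4431, 5088 and 3225 with the control arrays alone, array weights and all probe sets. For the difference of effects it was 21, against 2585 with array weights, 47 of all probe sets and 0 to 320 with each array left out. The cause was not tested. No paired analysis was possible because the groups share no replicate numbers. Dim probe sets limit Rcvrn and the second probe sets of Rbp3 and Snap25, whose values lie below the array median.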
